A study of Mus musculus with 48 samples.

Results

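The 60 genes described here build ribosomes or transcribe ribosomal DNA. They were chosen by function, with earlier results of these data known. The gene symbol of the annotation was matched to the gene identifiers of the expression tables. All 60 were found among the 20622 genes with an RNA value and among the 16269 genes with a transcript counted for ribosome-protected fragments. These fragments (RPFs) are the short stretches of mRNA covered by a translating ribosome. Every member had RPF counts in all 24 mice. By role, 8 act in RNA polymerase I (Pol I) transcription, 9 in small nucleolar ribonucleoproteins (snoRNPs), 18 in the small ribosomal subunit, 22 in the large subunit, and 3 are multifunctional nucleolar proteins.

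Livers were taken from male mice, aged 2 to 4 months and weighing at least 20 g, at 4 or 10 days after a tail-vein injection of AAV8.TBG.PI.Cre.rBG, a virus that expresses Cre from the hepatocyte-active TBG promoter. Wild-type mice (WT) received the same virus, and all mice had the higher of the AAV8.TBG.Cre doses used in the paper. The mutants carried Ctnnb1ex3/+ (B, a β-catenin allele that loses exon 3 and gives a stabilised protein), R26-LSL-MYC (M, a MYC transgene in the *Rosa26* locus behind a removable stop), or Ctnnb1ex3/+; R26-LSL-MYC (BM). Each genotype and day had 3 mice, and each mouse gave an RPF library and a cytoplasmic RNA library, so that the 8 groups made 48 libraries. In whole liver, fewer cells of a type and less RNA per cell cannot be told apart.

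Ribosome production starts in the nucleolus, where Pol I transcribes the ribosomal DNA into a single long precursor. SnoRNPs modify that precursor, the small subunit processome and a separate set of large subunit factors fold and cut it, and ribosomal proteins join along the way. MYC is known to activate genes of every one of these steps, and liver cells raise ribosome production when they grow.

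RPF libraries held 9742197 to 14380713 counts and RNA libraries 3254141 to 6540116. Of 8 hepatocyte markers 7 were matched, and their summed RNA level was 93037 to 100562 CPM (counts scaled to the library size) in WT at day 4. *Glul*, a target of β-catenin, had 3901 ± 798 RPF CPM in B at day 4 against 845 ± 18.8 in WT (mean ± s.d., n = 3 mice each, as for all such values here), and *Myc* had 60.4 ± 2.55 RPF CPM in M against 11.3 ± 8.09 in WT. *Myc* RNA did not separate the genotypes. At day 4 WT mice had 28 ± 1.37 RNA CPM, M mice 31.4 ± 3.09 and BM mice 24 ± 5.09, and at day 10 the values were 31.4 ± 11.1, 23.1 ± 3.08 and 40.9 ± 17.5, so it gave no check of the labels of the RNA libraries. *Myc* reads from the transgene and from the endogenous gene could not be separated. BM mouse 1 of day 10 stood apart, with 58.0 RPF CPM of *Myc* against 121 and 164 in mice 2 and 3, and results that rest on it are given with and without it. Neither labels nor methods gave library batches.

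Promoter windows were looked at for the E-box CACGTG, the letters that MYC with its partner MAX is known to bind. RefSeq windows (GRCm38.p6) from 250 bases before to 50 bases after the start of transcription were found for 52 of the 60 members. The hexamer, which is its own reverse complement, was present in a window of 9 of those 52 genes (17.3%), and in a window of 8.09% of the 27025 genes of the same table. Those 27025 genes were not limited to genes expressed in liver, so the 2 shares are not of like sets. The 9 were *Mybbp1a*, *Nol11*, *Nop2*, *Pes1*, *Rrn3*, *Tsr1*, *Utp20*, *Utp4* and *Wdr43*. The windows of 4 genes are shown in lower case with each CACGTG in capitals: *Nop56* (chr2:130274162-130274461, plus strand) because it rose among the most without the hexamer in this window, *Nop2* (chr6:125131633-125131932, plus strand) because it rose and holds it once, *Rrn3* (chr16:13780449-13780748, plus strand) because it holds it at 2 places, and *Utp20* (chr10:88826765-88827064, minus strand) because it holds it once and was among the members that moved least.
Nop56: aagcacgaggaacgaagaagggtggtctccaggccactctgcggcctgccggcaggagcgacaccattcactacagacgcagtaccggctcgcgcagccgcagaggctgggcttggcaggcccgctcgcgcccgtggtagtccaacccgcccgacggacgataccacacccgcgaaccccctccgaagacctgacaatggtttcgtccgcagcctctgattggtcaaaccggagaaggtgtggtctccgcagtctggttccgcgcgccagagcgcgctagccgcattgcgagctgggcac
Nop2: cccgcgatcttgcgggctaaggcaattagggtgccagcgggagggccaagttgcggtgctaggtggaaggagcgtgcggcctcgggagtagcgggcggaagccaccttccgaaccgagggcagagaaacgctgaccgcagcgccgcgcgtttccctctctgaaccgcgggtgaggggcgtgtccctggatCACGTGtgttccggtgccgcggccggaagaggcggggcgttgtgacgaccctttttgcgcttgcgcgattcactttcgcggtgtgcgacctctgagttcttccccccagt
Rrn3: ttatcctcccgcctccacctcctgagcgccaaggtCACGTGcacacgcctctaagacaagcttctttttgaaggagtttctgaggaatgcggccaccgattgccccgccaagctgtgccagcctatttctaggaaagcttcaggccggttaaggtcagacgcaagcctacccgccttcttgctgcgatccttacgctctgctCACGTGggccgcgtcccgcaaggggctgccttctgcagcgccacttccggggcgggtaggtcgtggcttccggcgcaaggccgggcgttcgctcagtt
Utp20: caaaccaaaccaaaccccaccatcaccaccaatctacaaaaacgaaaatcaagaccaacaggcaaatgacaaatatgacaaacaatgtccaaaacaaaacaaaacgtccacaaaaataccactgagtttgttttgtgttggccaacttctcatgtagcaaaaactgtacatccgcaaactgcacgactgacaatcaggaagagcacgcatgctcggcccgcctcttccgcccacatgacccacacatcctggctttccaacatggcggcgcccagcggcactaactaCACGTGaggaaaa
In these windows the first base of the hexamer lay 60 bases before the start of *Nop2*, 215 and 48 bases before that of *Rrn3*, and at base 37 after that of *Utp20*. A match describes the letters only, and a window without one says nothing of the rest of the locus.

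In WT liver the members spanned a wide range of mRNA levels per length. *Npm1*, which encodes the nucleolar chaperone nucleophosmin, stood first at 227 ± 36.1 TPM (a level scaled to transcript length and library size) at day 4. *Nop10* (51.2 ± 8.08 TPM), *Fbl* (45.5 ± 5.83 TPM) and *Rcl1* (36.4 ± 3.21 TPM) came next, and the spreads of *Nop10* and *Fbl* overlapped. *Tcof1* was lowest at 0.747 ± 0.216 TPM, and its spread overlapped those of *Gar1* (1.01 ± 0.549 TPM) and *Rrp1b* (1.07 ± 0.259 TPM). Together the 60 genes took 0.174% ± 0.00999 of the RPF counts and 0.141% ± 0.00772 of the RNA counts of WT at day 4.

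At day 4 few members were called in B, part of them rose in M and nearly all rose in BM. Calls are at an adjusted p under 0.1 in edgeR's quasi-likelihood test, adjusted over all genes tested, and changes are fitted log2 values against the WT mice of the same day, which the 3 mutant genotypes share. In RPFs, 0 of 60 members were called higher in B (background over all genes, 6.21%) and 2 were called lower (background 6.26%). With library totals in place of TMM scaling, 2 were higher (background 11.4%) and 1 lower (background 3.80%), so the split of these few calls turned with the scaling. In M, 30 of 60 members were called higher (background 18.5%) and none lower, with a median change of 0.31, and with library totals 48 of 60 (background 38.2%). In BM, 58 of 60 were called higher (background 26.2%), with a median of 0.79 against -0.00 over all genes. The RNA gave the same order of genotypes: B had 0 of 59 called higher (background 4.41%) and 1 lower (background 3.73%; 2 higher and 0 lower with library totals, background, higher, 14.4%), M had 22 of 60 higher (background 13.5%, median 0.29; 52 of 60 with library totals, background 50.7%) and BM had 49 of 60 higher (background 21.3%, median 0.65).

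At day 10 most members were called higher in M and BM, and fewer in B. All RPF values here are relative to the other genes of a library. A fall in ribosome occupancy common to all genes would therefore not show in them. The paper reports that global ribosome occupancy was reduced in BM livers at the later time. Whether absolute translation of the members rose was not tested. RPFs of 26 of 60 members were called higher in B (background 13.1%), 52 in M (background 10.6%) and 59 in BM (background 24.5%), with none lower, and with library totals the count in B was 53 of 60 (background 33.9%). The median RPF changes were 0.33, 0.77 and 1.44. In RNA, 11 of 59 members were called higher in B (background 8.14%, median 0.30; 32 of 59 with library totals, background 19.6%), 40 of 59 in M (background 8.53%, median 0.66) and 55 of 60 in BM (background 22.9%, median 1.19). The fitted RPF change was above 1 on the log2 scale, a doubling, for 3 members in M at day 4 (3.78% of all genes), 16 in M at day 10 (3.26%), 18 in BM at day 4 (7.06%) and 46 in BM at day 10 (12.5%), and above 2 for 11 in BM at day 10 (2.82%).

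**Figure D1:**
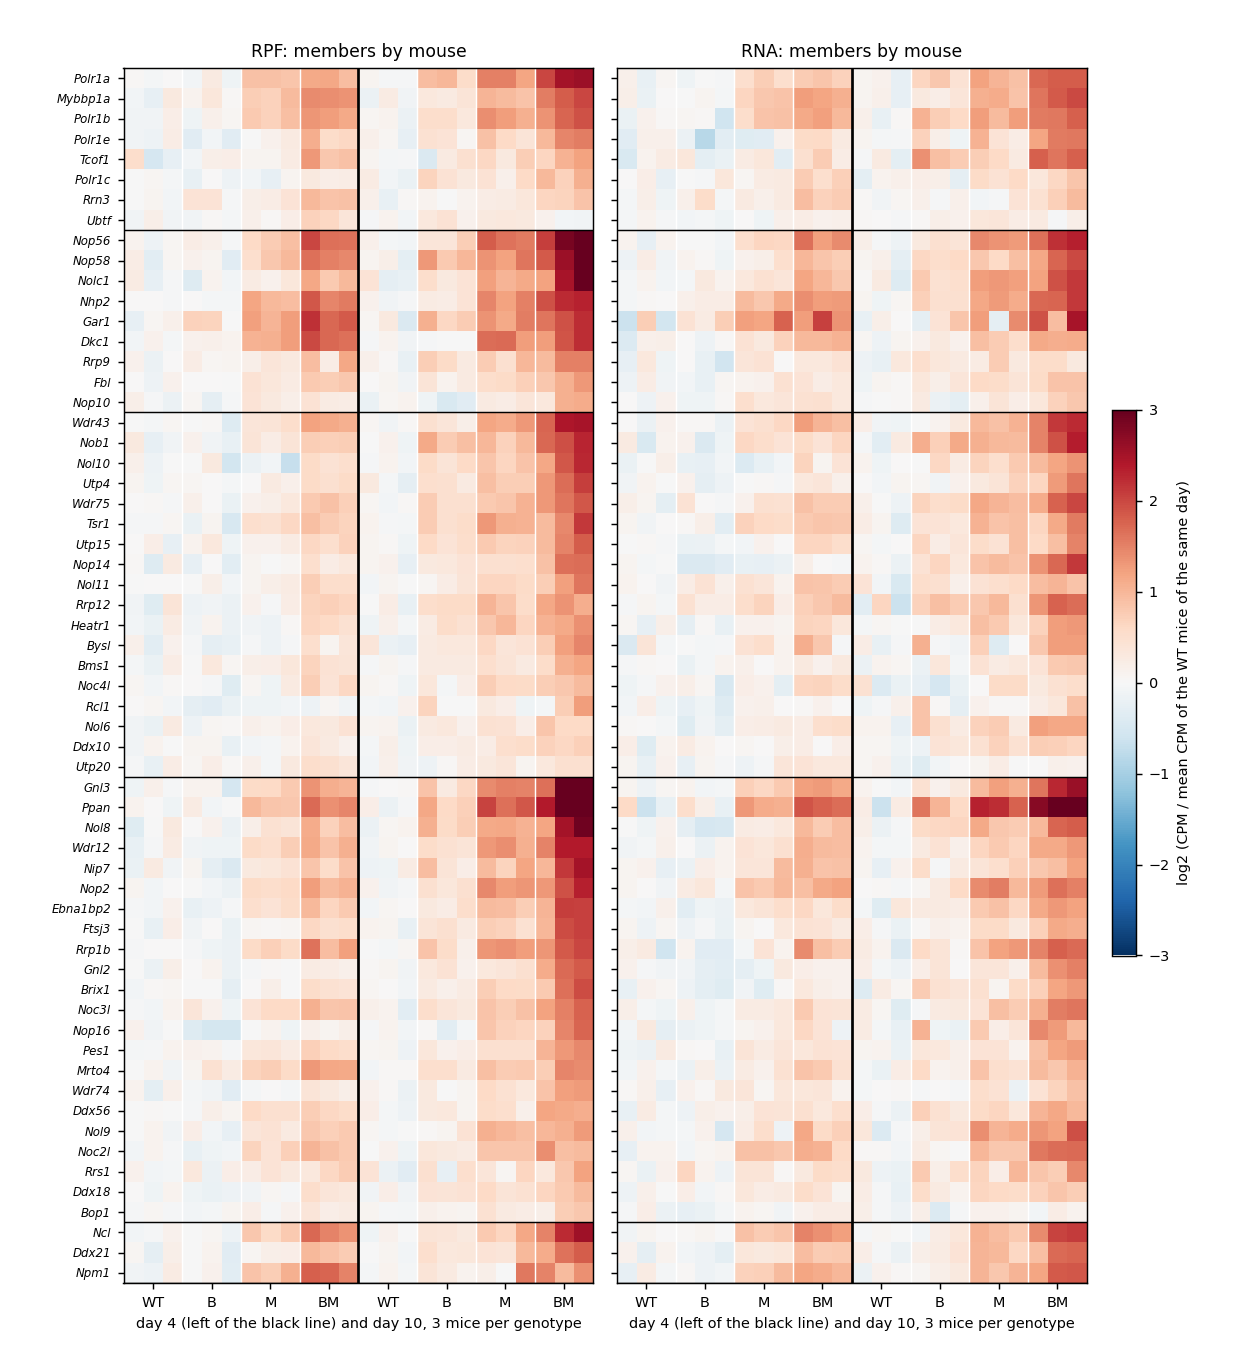
Each row is a member, grouped by role, and each column a mouse. Colour is the log2 of the mouse's RPF CPM (left) or RNA CPM (right) over the WT mean of the same day, with the scale ending at -3 and 3. The columns of BM at day 10 are the darkest, with mouse 1 paler than mice 2 and 3, and *Rcl1*, *Utp20*, *Bop1* and *Ubtf* stay pale in most columns.

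The medians by mouse followed the same order. The median over the 60 members of a mouse's RPF CPM against the WT mean was 0.21, 0.28 and 0.30 (log2) in M mice 1 to 3 at day 4, and 0.80, 0.67 and 0.75 in BM. At day 10 the medians were 0.39, 0.34 and 0.30 in B, 0.80, 0.66 and 0.74 in M, and 1.02, 1.49 and 1.76 in BM. WT mice lay between -0.09 and 0.06 over both days, and B at day 4 between -0.13 and 0.05. BM mouse 1 of day 10 had the lowest median of its group, still above every M mouse. Without that mouse the counts called higher in BM at day 10 were 59 of 60 in RPFs (background of that fit 33.4%) and 55 of 60 in RNA (27.9%), as with it.

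The members' share of the library followed the same order. At day 4 the share of RPFs was 0.457% ± 0.0412 in BM, 0.274% ± 0.00493 in M and 0.182% ± 0.0104 in B. By day 10 the share was highest in BM (0.683% ± 0.136), followed by M (0.361% ± 0.0306), B (0.266% ± 0.0121) and WT (0.178% ± 0.0169). The 3 BM mice of day 10 had shares of 0.534%, 0.717% and 0.799%, and no mouse of another group reached the lowest of them.

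**Figure D2:**
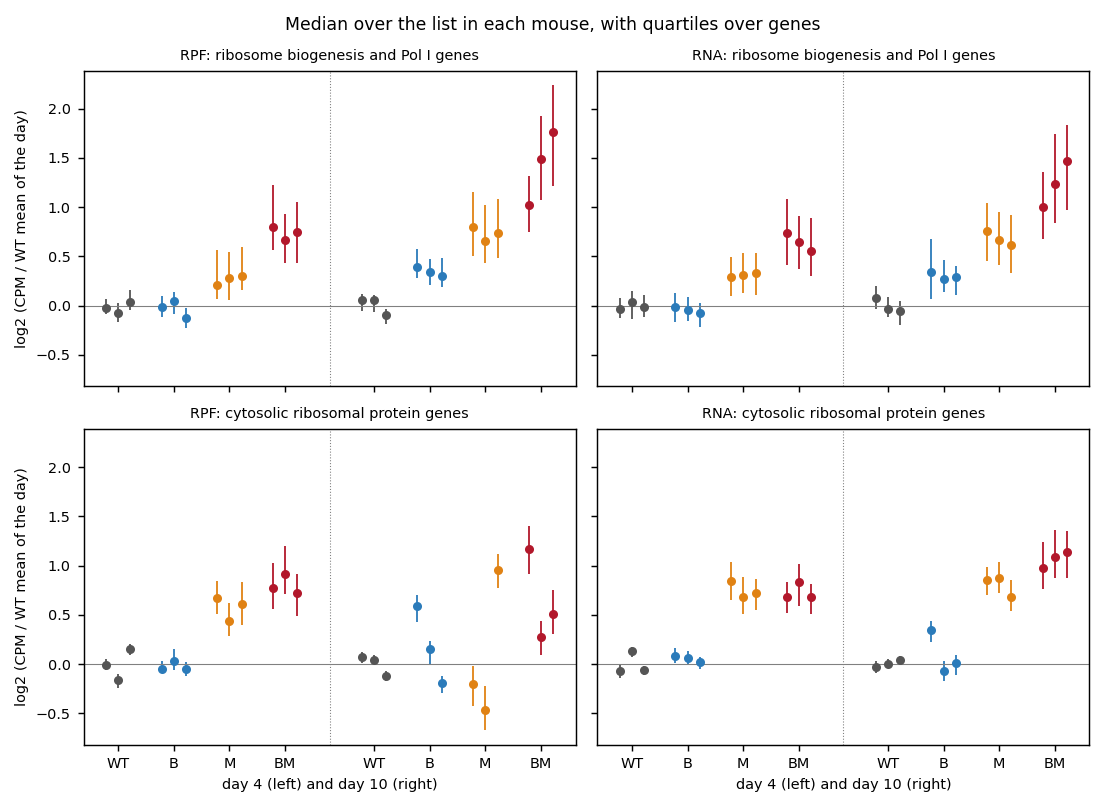
Points are the median over genes, in 1 mouse, of log2 CPM over the WT mean of the day, with bars from the lower to the upper quartile over genes; RPFs are on the left, RNA on the right, the 60 members above and cytosolic ribosomal protein genes below. Members rise from M to BM and from day 4 to day 10 in both kinds of library, while the ribosomal protein RPFs of the M mice at day 10 lie at -0.20, -0.46 and 0.96.

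RPFs of the Pol I genes rose in BM at both days, apart from those of *Ubtf* at day 10. RPFs of 4 of the 8 were called higher in M at day 4 (18.5% of all genes), 8 in BM at day 4 (26.2%; median 0.97), 6 in M at day 10 (10.6%) and 7 in BM at day 10 (24.5%; median 1.15). RNA was called higher for 6 in BM at day 4 (21.3%) and 7 at day 10 (22.9%). *Polr1a*, the largest subunit of Pol I, had 34.5, 32.2 and 34.1 RPF CPM in WT at day 4, 62.2, 62.1 and 60.1 in M, and 73.8, 74.8 and 63.8 in BM. At day 10 it had 29.0, 26.8 and 26.7 in WT, 52.5, 54.5 and 40.3 in B, 78.5, 78.7 and 62.9 in M, and 111, 156 and 162 in BM. The 4 genotypes did not overlap at day 10, and at day 4 M and BM lay above WT and apart from each other. The fitted RPF change in BM was 1.10 (SE 0.0915, adjusted p = 4.6e-06) at day 4 and 2.37 (SE 0.188, adjusted p = 0.000196) at day 10, and in B at day 10 it was 0.82 (SE 0.128, adjusted p = 0.00342).

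*Polr1b*, which forms the catalytic core with *Polr1a*, behaved in the same direction. Its RPF CPM were 27.5, 28.5 and 23.2 in WT at day 10, 38, 38.2 and 33.1 in B, 69.0, 63.0 and 54.9 in M, and 67.0, 89.1 and 99.1 in BM, where BM mouse 1 fell within the range of M. Its fitted RPF change was 1.23 (SE 0.126, adjusted p = 0.00184) in M and 1.67 (SE 0.19, adjusted p = 0.000939) in BM. *Rrn3* encodes the initiation factor that brings Pol I to its promoter. Its RPF CPM at day 4 were 36.2, 38.7 and 34.1 in WT and 71.4, 65.7 and 67.2 in BM, and at day 10 41.9, 32.0 and 38.7 in WT and 58.7, 60.1 and 67.9 in BM, so BM lay above WT without overlap at both days. The change was 0.93 (SE 0.084) at day 4 and 0.72 (SE 0.159, adjusted p = 0.0111) at day 10. In M it was 0.31 (SE 0.093, adjusted p = 0.0345) at day 4, a call lost without WT mouse 1 or 3 or M mouse 3, and was not called at day 10 (0.26, adjusted p = 0.191).

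*Ubtf*, the upstream binding factor that keeps ribosomal DNA open, went the other way between days. Its RPF CPM in BM were 48.3, 46.1 and 38.8 at day 4, all above the WT values of 28.0, 33.9 and 28.0, and 34.9, 30.1 and 29.7 at day 10, within or near the WT values of 30.9, 34.3 and 30.2. The RPF change was 0.59 (SE 0.113, adjusted p = 0.00141) at day 4 and -0.02 (SE 0.146, adjusted p = 0.916) at day 10. Its RNA change in BM was not called at either day (0.17 and 0.14). *Tcof1*, which encodes the nucleolar protein treacle, had few counts, with 4.98 to 10.2 RPF CPM in WT and 17.5, 12.4 and 13 in BM at day 4, and 10.6, 14 and 15.8 in BM at day 10, both above WT. Its RPF rose in BM by 1.02 (SE 0.233, adjusted p = 0.00453) at day 4 and 0.97 (SE 0.208, adjusted p = 0.00989) at day 10, and its RNA was called in BM at day 10 (1.70, SE 0.267, adjusted p = 0.00162) but not at day 4 (0.52, adjusted p = 0.19).

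SnoRNP genes had the largest median RPF change of the 4 larger role groups in M and in BM at both days. RPFs of 7 of the 9 were called higher in M at day 4 (median 0.79; 18.5% of all genes), all 9 in BM at day 4 (median 1.55; 26.2%), 8 in M at day 10 (median 1.33; 10.6%) and all 9 in BM at day 10 (median 1.91; 24.5%). RNA was called higher for 8 of the 9 in BM at both days (21.3% and 22.9% of all genes), with medians of 1.00 and 1.66, *Rrp9* being the exception each time. *Nop56*, a core protein of box C/D snoRNPs, had 24.3, 20.3 and 23.5 RPF CPM in WT at day 4, 34.6, 38.6 and 42.4 in M and 91.5, 71.4 and 70.3 in BM. By day 10 it had 20.9, 18.1 and 17.8 in WT, 66.6, 58.9 and 56.2 in M, and 79.6, 137 and 159 in BM. WT, M and BM were apart at both days. The RPF change was 0.79 in M and 1.80 in BM at day 4, and 1.67 (SE 0.115, adjusted p = 0.000538) in M and 2.71 (SE 0.269, adjusted p = 0.000546) in BM at day 10.

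*Nop58*, its partner in the box C/D core, was the member with the largest RPF change in B at day 10 (1.03, SE 0.163, adjusted p = 0.00358). The RPF CPM at day 10 were 23.7, 25.1 and 18.3 in WT, 55.4, 38.7 and 44.9 in B, 56.9, 51.9 and 68.1 in M, and 80.0, 133 and 202 in BM, where B overlapped M and BM lay above both. Fibrillarin, the methyltransferase encoded by *Fbl*, moved less. Its RPF CPM were 42.2, 37.5 and 45.9 in WT and 72.5, 70.4 and 73.0 in BM at day 4, and 42.0, 44.3 and 38.3 against 72.9, 87.1 and 102 at day 10. BM was above WT without overlap at each day, by 0.80 (SE 0.0908, adjusted p = 3.86e-05) and 1.06 (SE 0.167, adjusted p = 0.00304).

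*Dkc1* encodes dyskerin, the pseudouridine synthase of box H/ACA snoRNPs, which also belongs to telomerase. Its RPF CPM were 20.6, 23.7 and 21.1 in WT at day 4, 24, 24.1 and 23.4 in B, 44.6, 45.4 and 51.7 in M, and 85.4, 72.0 and 68.0 in BM. At day 10 they were 22.5, 24.8 and 21.4 in WT, 22.4, 22.6 and 22.7 in B, 73.3, 74.6 and 54.9 in M, and 54.8, 84.1 and 107 in BM. M and BM overlapped at day 10, and B lay within the range of WT there. The RPF change was 1.15 (SE 0.0993, adjusted p = 7.37e-05) in M and 1.81 (SE 0.107, adjusted p = 4.06e-07) in BM at day 4, and 1.56 and 1.83 at day 10. *Gar1*, another H/ACA protein, had the largest RPF change at day 4 in M (1.21, SE 0.171, adjusted p = 0.000873) and in BM (1.96, SE 0.178, adjusted p = 8.24e-06), from 3.22, 4.01 and 4.30 RPF CPM in WT to 17.5, 12.7 and 13.7 in BM. Its RNA was sparse, between 0.668 and 1.76 CPM in WT at day 4, and passed the filter on low counts neither in B at either day nor in M at day 10.

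Small subunit genes were called in BM at both days and in M at day 10. In RPFs 3 of the 18 were called higher in M at day 4, a share near the 18.5% of all genes, 15 in M at day 10 (10.6% of all genes), 17 in BM at day 4 (median 0.57; 26.2%) and 18 in BM at day 10 (median 1.20; 24.5%). *Heatr1*, a large scaffold of the small subunit processome, had 56.5, 52.4 and 71.2 RPF CPM in WT at day 4 and 56.0, 54.2 and 62.0 in M, which overlapped, and 93.1, 90.8 and 82.0 in BM. By day 10 it had 41.9, 50.5 and 44.0 in WT, 79.1, 91.2 and 71.4 in M, and 94.1, 100 and 118 in BM, and WT, M and BM were apart. The RPF change in M was -0.03 (SE 0.117, adjusted p = 0.866) at day 4 and 0.82 (SE 0.127, adjusted p = 0.00735) at day 10.

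*Nob1*, the endonuclease that makes the last cut of the 18S rRNA precursor, rose in B as well as in M and BM at day 10. Its RPF CPM were 6.30, 6.96 and 5.77 in WT, 13.9, 10.8 and 11.8 in B, 12.6, 10.3 and 12.5 in M and 21.1, 24.4 and 30.7 in BM, and every mutant mouse was above every WT mouse. The RPF change was 0.92 (SE 0.16, adjusted p = 0.00538) in B, 0.89 (SE 0.15, adjusted p = 0.0098) in M and 1.98 (SE 0.203, adjusted p = 0.00063) in BM, and the RNA change was 0.99, 1.01 and 1.95. *Bysl*, an assembly factor of the small subunit, was called in RPFs of BM at day 10 (1.16, SE 0.255, adjusted p = 0.0107), with 21.9, 31.2 and 36.7 CPM against 16.9, 11.7 and 11.1 in WT, and in BM at day 4 (0.35, adjusted p = 0.0855), a call lost without WT mouse 2 or 3 or BM mouse 1 or 3.

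Some small subunit genes were at the low end. *Utp20*, a processome component, had 50.2, 44.6 and 60.5 RPF CPM in WT and 74.2, 71.7 and 67.1 in BM at day 4, and 45.6, 53.6 and 44.9 against 59.6, 66.8 and 66.9 at day 10. Its RPF change in BM was 0.48 (SE 0.109, adjusted p = 0.00435) and then 0.41 (SE 0.143, adjusted p = 0.0556), the smallest called at day 10 and lost without WT mouse 1 or 3 or BM mouse 2 or 3, while its RNA change at day 10 was 0.09 (adjusted p = 0.615). *Rcl1*, which takes part in processome cleavage, had 109, 113 and 103 RPF CPM in WT and 98.0, 112 and 100 in BM at day 4 and overlapped, with a change of -0.04 (SE 0.0837, adjusted p = 0.742). At day 10 its 3 BM mice ran from 82.3 through 143 to 204 CPM, mouse 1 being inside the WT range of 80.8 to 94.5 (0.72, SE 0.301, adjusted p = 0.0947; the call was lost on leaving out any WT mouse or BM mouse 2 or 3). *Nol10*, another processome protein, had the lowest RPF and RNA changes in M at day 4 (-0.26, adjusted p = 0.293, and -0.23, adjusted p = 0.401). *Nop14* RNA had the next lowest in M (-0.21, adjusted p = 0.291) and was near WT in BM at day 4, at 27.1, 24.2 and 23.5 CPM against 25.2, 22.8 and 23.8, and then reached 38.6, 50.0 and 65.7 CPM against 16.4, 15.7 and 13.5 at day 10 (1.74, SE 0.209, adjusted p = 0.000445).

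Large subunit genes rose in RPFs of M for 14 of 22 members at day 4 (18.5% of all genes) and 21 at day 10 (10.6%), and of BM for 21 at day 4 (median 0.79; 26.2%) and 22 at day 10 (median 1.52; 24.5%). The 2 members with the largest RPF and RNA changes in BM at day 10, *Gnl3* and *Ppan*, belong to this group. *Gnl3*, the nucleolar GTPase nucleostemin, had 25.7, 31.3 and 27.8 RPF CPM in WT at day 4, 42.4, 42.8 and 49.1 in M and 71.8, 60.3 and 57.2 in BM. At day 10 it had 23.2, 23.6 and 24 in WT, 63.5, 67.6 and 66.1 in M, and 73.9, 190 and 252 in BM. The BM mice of day 10 were all above M but spread widely, mouse 1 lying close to M, and the RPF change was 2.85 with an SE of 0.41 (adjusted p = 0.00217) against 1.48 with an SE of 0.0901 in M. *Ppan*, the homologue of a yeast factor of large subunit assembly, rose in all 3 mutant genotypes at day 10, from 9.18, 7.16 and 7.81 RPF CPM in WT to 17.9, 12.1 and 13.2 in B, 32.8, 25.3 and 29.5 in M, and 41.8, 63.8 and 67.0 in BM. The 4 genotypes did not overlap. Its RPF change was 0.82 (SE 0.184, adjusted p = 0.0165) in B, 1.85 (SE 0.147, adjusted p = 0.00104) in M and 2.82 (SE 0.233, adjusted p = 0.000231) in BM, and its RNA change in BM, 3.28 (SE 0.351, adjusted p = 0.000256), was the largest of any member. *Ppan* RNA was sparse in WT, at 4.68, 1.98 and 2.64 CPM at day 4 and 2.9, 1.57 and 2.95 CPM at day 10.

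*Pes1*, *Bop1* and *Wdr12* encode the 3 proteins of the PeBoW complex, which processes the 28S and 5.8S precursor, and they moved by unequal amounts. *Wdr12* had 17.1, 19.6 and 18.7 RPF CPM in WT at day 10, 45.4, 48.2 and 38.6 in M and 51.9, 96.3 and 95.6 in BM. *Pes1* had 40.1, 40.3 and 34.7 in WT, 53.1, 53.7 and 53.5 in M and 77.8, 94.8 and 104 in BM. *Bop1* had 44.6, 41.2 and 40.6 in WT, 58.2, 50.5 and 48.8 in M and 47.3, 69.9 and 73.6 in BM. WT, M and BM were apart for *Wdr12* and *Pes1*, while for *Bop1* the BM mice, mouse 1 lowest, overlapped M. The RPF changes in BM were 2.12 (SE 0.256, adjusted p = 0.00116), 1.25 (SE 0.164, adjusted p = 0.00155) and 0.58 (SE 0.193, adjusted p = 0.0478), the last being lost on leaving out any WT mouse or BM mouse 2 or 3. *Bop1* RNA had the smallest change of all members in BM at day 10 (0.07, SE 0.16, adjusted p = 0.748). Differences between the 3 genes were not tested.

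*Nop16*, a large subunit factor, started below WT in B at day 4. It had 30.2, 27.2 and 27.2 RPF CPM there against 43.1, 36.4 and 38.9 in WT, with no overlap (-0.50, adjusted p = 0.0111), and 43.6, 41.6 and 44.6 in BM (0.15, adjusted p = 0.2). By day 10 it was near WT in B (30.6, 24.3 and 29.1 against 29.4, 32.3 and 28.5) and had risen to 48.6, 83.4 and 101 in BM (1.36, SE 0.262, adjusted p = 0.00657).

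In RNA of the 3 multifunctional genes, every M and BM mouse lay above every WT mouse of the same day. RPFs did not all follow in M. *Ddx21* RPFs were 74.3, 81.1 and 82.5 CPM in M at day 4 and overlapped those of WT (75.4, 59.2 and 81). *Ncl* encodes nucleolin, an abundant RNA-binding protein of the nucleolus, and had 220, 226 and 254 RPF CPM in WT at day 4, 407, 347 and 405 in M, and 771, 652 and 593 in BM. At day 10 it had 254, 303 and 274 in WT, 364, 354 and 342 in B, 481, 430 and 620 in M, and 771, 1301 and 1610 in BM, with no overlap between the 4 genotypes. The RPF change was 0.76 in M and 1.55 (SE 0.106, adjusted p = 1.12e-06) in BM at day 4, and 0.88 and 2.14 (SE 0.28, adjusted p = 0.00155) at day 10.

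*Npm1* was called higher in RNA but not in RPFs of M at day 10. At day 4 its RPFs were 100, 96.6 and 128 CPM in WT, 196, 180 and 228 in M, and 374, 362 and 304 in BM. At day 10 they were 157, 177 and 158 in WT, 184, 163 and 488 in M, and 460, 318 and 421 in BM. M mice 1 and 2 lay in or next to the WT range there and mouse 3 lay above every BM mouse, and the RPF change of M was not called (0.76, SE 0.368, adjusted p = 0.217). The RNA of the same M mice was 370, 322 and 369 CPM against 161, 202 and 187 in WT, and was called (0.95, SE 0.121, adjusted p = 0.000874). Translational efficiency (TE, the RPF change beyond the RNA change) of *Npm1* was not called in M at day 10 with all mice. Without M mouse 3, 2 members were called for TE in M. *Npm1* was among them and was called lower (-0.83, with 1.13% of all genes called lower in that fit). The same M mice differed in ribosomal protein RPFs, with list medians against WT of -0.20, -0.46 and 0.96 (log2), and their RNA medians were 0.85, 0.87 and 0.68. Whether this had a part in the *Npm1* result was not tested.

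**Figure D3:**
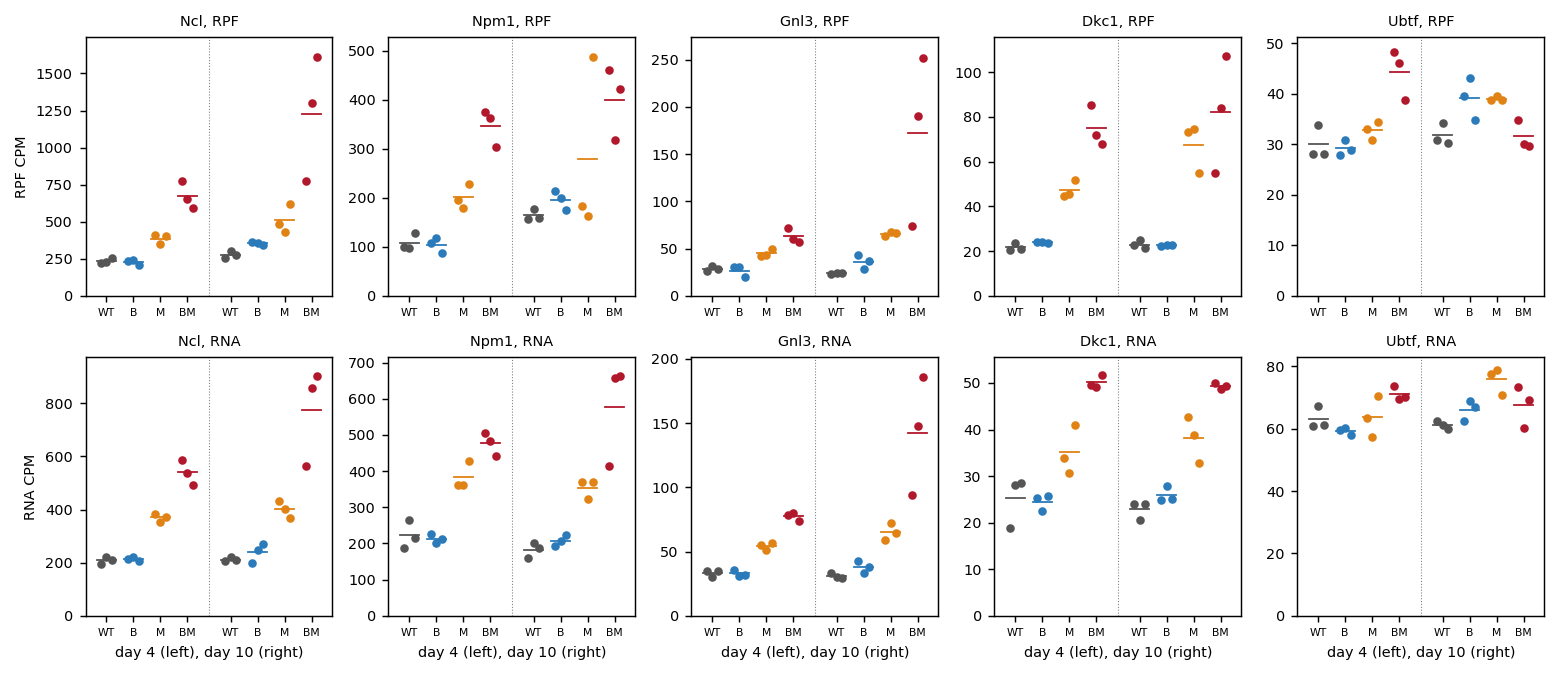
RPF CPM (above) and RNA CPM (below) of 5 members, with a point for each mouse and a bar at the group mean; each axis starts at 0 and has its own range. *Ncl* and *Gnl3* spread widely in BM at day 10, *Npm1* RPFs of M mouse 3 at day 10 stand at 488 against 184 and 163, *Dkc1* RPFs rise more than its RNA, and *Ubtf* is back at the WT level in BM at day 10.

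The members with the largest and smallest changes included several genes in both kinds of library. In RNA at day 4 the largest were *Gar1* (1.36) and *Ppan* (1.15) in M, and *Ppan* (1.78) and *Gar1* (1.56) in BM, and the smallest in BM were *Nop14* (0.06) and *Rcl1* (0.06). In RNA at day 10 the largest were *Ppan* (2.12) and *Nop56* (1.35) in M, and *Ppan* (3.28) and *Gnl3* (2.19) in BM. The smallest were *Rcl1* (0.07) and *Utp20* (0.10) in M, and *Bop1* (0.07) and *Utp20* (0.09) in BM, and none of these 4 was called. In RPFs *Rcl1* was at the low end of M at both days (-0.08 and 0.12, neither called), followed at day 10 by *Utp20* (0.25, not called).

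Translational efficiency (TE) is here the RPF change beyond the RNA change, tested as an interaction between group and type of library. Few members were called for TE in the main fit, which does not pair the libraries of a mouse. Few calls do not show that TE was unchanged. At day 4, no member was called for TE in B (background, in either direction, 0.0488%), none in M (background 0.971%) and 2 of 60 in BM (background 2.23%), both higher: *Dkc1* (0.81, SE 0.184, adjusted p = 0.0335) and *Nop58* (0.68, SE 0.179, adjusted p = 0.0783). At day 10 no member was called in B (background 0.0564%), M (background 0%) or BM (background 0.259%). An unadjusted p under 0.05 was reached at day 4 by 9 of 60 members in BM (background 10.1%), 4 of 60 in M (background 7.28%) and 0 of 59 in B (background 2.83%), and at day 10 by 9 of 60 (background 9.99%), 5 of 59 (background 3.20%) and 0 of 59 (background 5.25%), so the count of M at day 4 gave a share near that of all genes. Fitted TE changes in BM were above 0 for 44 of 60 members at day 4 (52.0% of all genes) and 43 of 60 at day 10 (53.4%).

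The log2 ratio of RPF CPM to RNA CPM of *Dkc1* was 0.12, -0.25 and -0.43 in WT at day 4 and 0.79, 0.55 and 0.39 in BM, with no overlap. That of *Nop58* was -0.45, -1.36 and -0.68 in WT and -0.16, -0.16 and -0.12 in BM, where WT mouse 2 stood lowest. Neither TE call held on leaving out BM mouse 1 or 2 or WT mouse 2 or 3, and that of *Nop58* was also lost without BM mouse 3. Since both libraries of a mouse came from the same animal, the mouse can also be put in the model. With that block 1 member was called higher in M at day 4 (*Dkc1*, 0.67, adjusted p = 0.0159, background 2.65%), 6 in BM at day 4 (*Dkc1*, *Fbl*, *Mrto4*, *Nop58*, *Npm1* and *Ubtf*, background 6.17%), 2 in M at day 10 (*Dkc1* and *Nop58*, background 0.325%) and 4 in BM at day 10 (*Ftsj3*, *Nop56*, *Nop58* and *Wdr12*, background 5.21%).

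BM mouse 1 of day 10 decided the TE count of its group, for all genes as for the members. Over all genes that count also moved, from the 0.259% given above to 10.4% called higher and 11.1% lower without that mouse. In the fit without it, 13 of 60 members were called higher for TE in BM against WT and 3 lower, counts to be read against those shares, the 3 being *Npm1* (-0.69, adjusted p = 0.0307), *Noc2l* (-0.78, adjusted p = 0.00771) and *Nol6* (-0.56, adjusted p = 0.0645). The log2 ratio of RPF to RNA of *Npm1* was 0.15 in mouse 1 and -1.05 and -0.65 in mice 2 and 3, against -0.03, -0.19 and -0.25 in WT. That of *Noc2l*, a factor of the maturing large subunit, was 0.70 in mouse 1 and 0.12 and 0.13 in mice 2 and 3, against 0.83, 0.97 and 0.85 in WT.

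Calls higher in RPFs and in RNA were then set side by side for each gene. In BM at day 4, 49 members were called in both (15.5% of all genes tested in either kind of library), 9 in RPFs only (9.21%) and none in RNA only (4.23%). In BM at day 10 the counts were 55 (14.7%), 4 (8.44%) and 0 (6.48%). In M at day 4 they were 18 (9.39%), 12 (7.95%) and 4 (3.29%), and at day 10 they were 38 (4.85%), 14 (5.15%) and 2 (3.09%), *Gar1* counting among the 14 because its RNA did not pass the filter. RPF libraries held more counts than RNA libraries, and the part of depth in these counts was not tested.

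**Figure D4:**
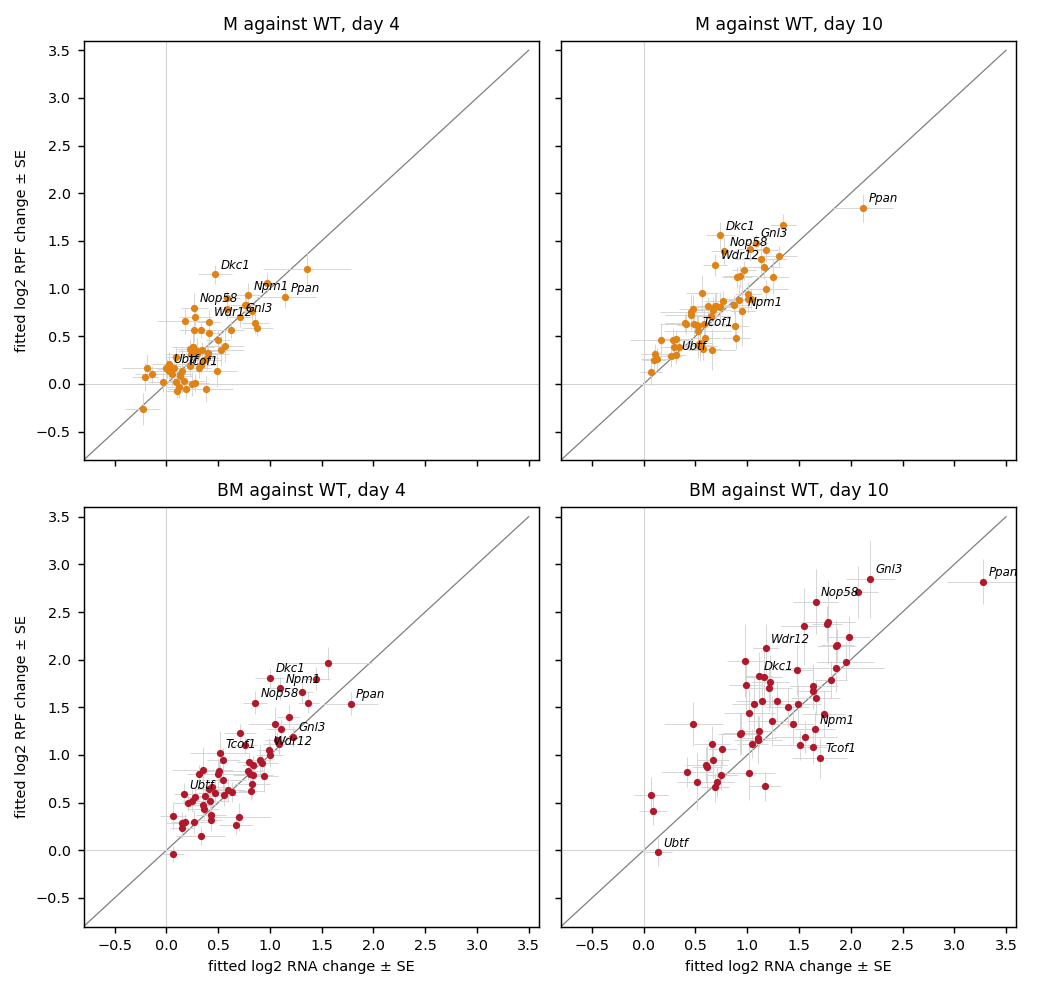
Each point is a member, with its fitted log2 RNA change on the x axis and its fitted log2 RPF change on the y axis, for M and BM against WT at each day; the line marks equal change. The points lie along the line in all 4 panels and reach furthest in BM at day 10, where the median changes are 1.19 in RNA and 1.44 in RPFs.

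Compared with M directly, BM had more of the members in both kinds of library. At day 4, RPFs of 52 of 60 members (background 18.8%, median 0.42) and RNA of 31 of 60 (background 14.6%, median 0.33; 48 of 60 with library totals, background 33.6%) were called higher in BM than in M, with *Nop56* (1.00) and *Tcof1* (0.87) leading in RPFs. At day 10 the counts were 36 of 60 in RPFs (background 16.0%, median 0.64) and 39 of 60 in RNA (background 16.3%, median 0.55), with the largest RPF differences in *Gnl3* (1.37, adjusted p = 0.0492), *Nolc1* (1.26, adjusted p = 0.0634) and *Ncl* (1.26, adjusted p = 0.0256). None of these 3 calls held in every alternative fit. Those of *Gnl3* and *Nolc1* were lost on leaving out any M mouse or BM mouse 2 or 3. That of *Ncl* was lost without M mouse 1 or 2. *Nolc1* in BM mouse 1, at 61.4 RPF CPM, lay inside the M values of 62.4, 53.8 and 58.8. Of the 36 calls, 7 held in each of 11 alternative fits. No member was called lower in BM than in M. The RPF count at day 10 moved with single mice: it was 54 higher and 1 lower without BM mouse 1 (background of that fit 30.5%), 13 without BM mouse 2, 17 without BM mouse 3, and 10, 7 and 21 without M mice 1, 2 and 3. The RNA count was 25 and 22 without M mice 1 and 2, and 19 and 22 without BM mice 2 and 3. The background moved too, from 5.45% to 30.5% over the 6 fits in RPFs and from 8.35% to 24.9% in RNA. For TE, no member was called at day 4 (background 0.0943%) or day 10 (background 0.132%). With the mouse block 1 was called at day 4 (*Npm1*, 0.45, adjusted p = 0.000488, background 2.12%), and without BM mouse 1 there were 7 higher (background of that fit 6.32%) and 1 lower (7.21%) at day 10.

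The change against WT differed between days for many members. A shift of the WT mice between the days is part of this difference. Scaled within a library, the RPF changes do not show whether absolute translation of the members differed between the days. In M, 12 of 60 were called for a larger RPF change at day 10 than at day 4 (background 0.633%, median difference 0.45) and 4 of 60 for RNA (background 0.467%, median 0.34; 1 with library totals, background 0.311%). In BM the counts were 33 larger (background 17.2%) and 1 smaller (background 18.6%) in RPFs, with a median difference of 0.61, and 30 larger in RNA (background 13.4%, median 0.57; 18 with library totals, background 8.66%). The fitted difference was above 0 for 49.7% of all genes in RPFs and 49.9% in RNA. The difference in BM was led by *Gnl3* (1.68, SE 0.446, adjusted p = 0.0163) in RPFs and by *Nop14* (1.68, SE 0.245, adjusted p = 0.000317) in RNA. *Polr1a* rose more at day 10 in both RPFs (1.28, SE 0.199, adjusted p = 0.000908) and RNA (1.00, SE 0.182, adjusted p = 0.00144), and *Ubtf* was the member with a smaller RPF change at day 10 (-0.60, SE 0.181, adjusted p = 0.0281). No member was called for a difference of the TE change in M (background 0%) or BM (background 0.310%), and without BM mouse 1 of day 10 there were 5 of 60 higher (background of that fit 5.35%) and 3 lower (7.81%) in BM, near the shares over all genes.

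These counts also moved with single mice. The RPF count in M was 0 without M mouse 1 of day 4, 1 and 6 without WT mice 1 and 3 of day 4, 4 without WT mouse 3 of day 10, 5 without M mouse 1 of day 10, and 25 larger and 1 smaller without M mouse 3 of day 10 (background of that fit, larger, 2.60%). That in BM was 20 larger and 1 smaller without BM mouse 2 or 3 of day 4, and 19 larger and 1 smaller without BM mouse 3 of day 10. The RNA count was 19 in BM without WT mouse 3 of day 10. In M it was 1 or 2 without any one of 7 mice, namely WT mice 1, 2 and 3 and M mice 1 and 3 of day 4, and WT mouse 3 and M mouse 1 of day 10. Over the 12 fits that leave out a mouse, the background for a larger change ran from 0.00854% to 2.60% in RPFs of M, 12.1% to 25.8% in RPFs of BM, 0.0596% to 0.589% in RNA of M and 10.2% to 19.7% in RNA of BM.

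**Figure D5:**
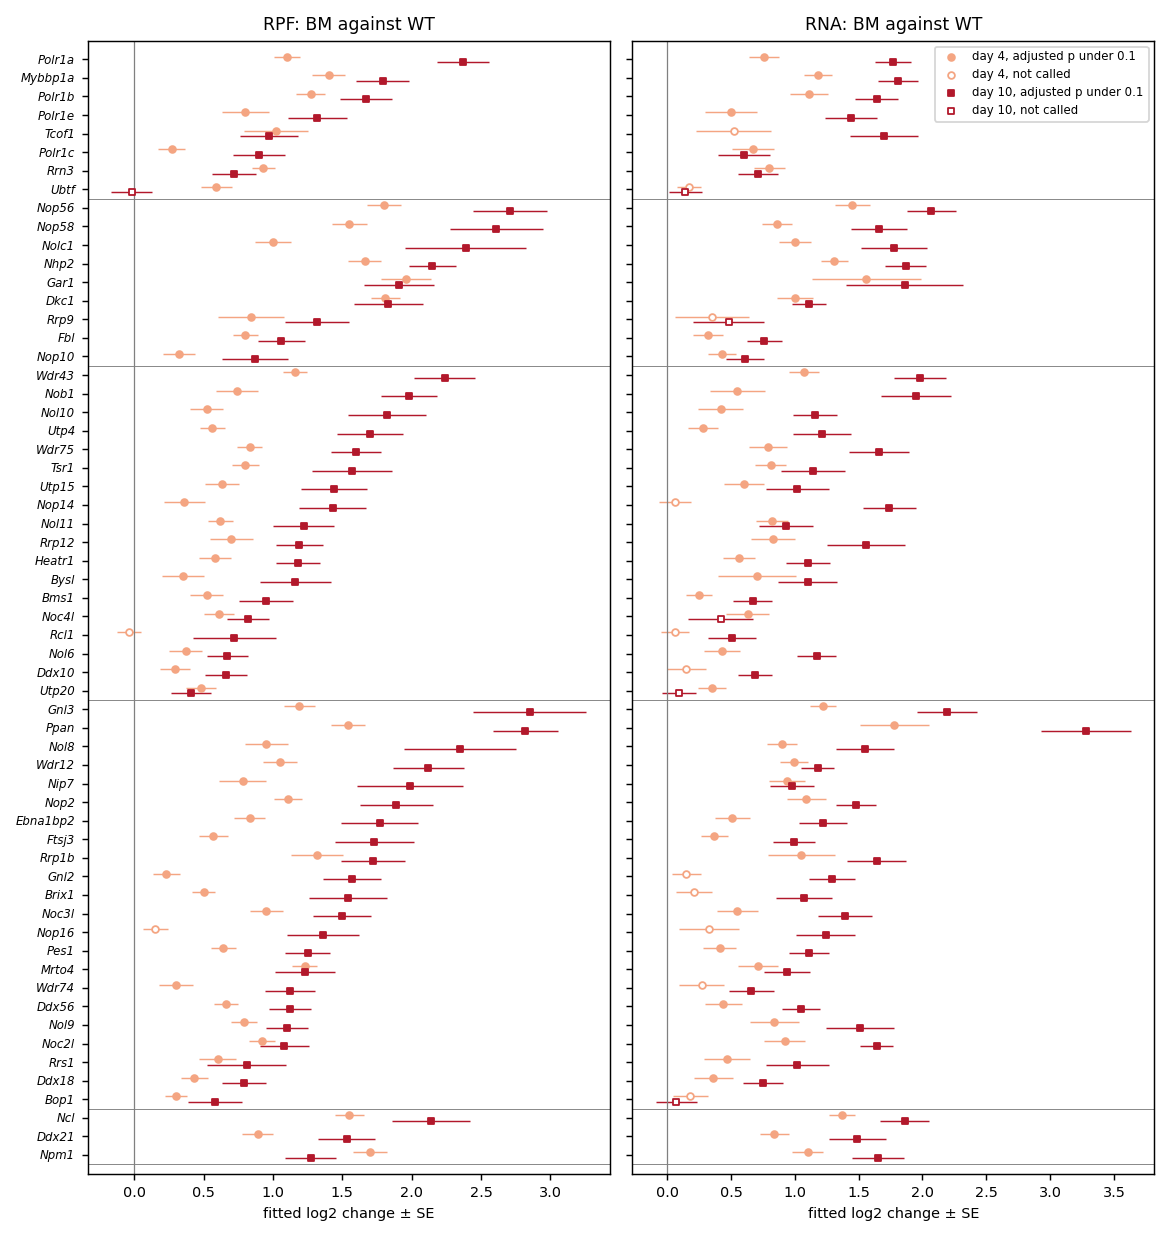
Fitted log2 change of each member in BM against WT with its SE, for RPFs (left) and RNA (right), at day 4 (light circles) and day 10 (dark squares), filled where the adjusted p was under 0.1. The day 10 value is the larger for 53 of 60 members in RPFs and 54 of 60 in RNA, and *Ubtf* lies at 0.59 and -0.02 in RPFs.

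In BM the proliferation markers did not follow the members from day 4 to day 10. The 8 markers summed to 114 to 168 RNA CPM in WT, 230 to 293 in M and 583 to 906 in BM at day 4, and to 110 to 164 in WT, 170 to 361 in M and 182 to 203 in BM at day 10, none of the 8 being at 0. The M ranges of the days overlapped, and in B the sums were 141 to 164 at day 4 and 223 to 419 at day 10, higher on the day on which more members were called. The RPF change in BM was called smaller at day 10 than at day 4 for all 8 (background 18.6%), beside 33 members called larger and 1 smaller. *Mki67* had 117 ± 34.2 RPF CPM in BM at day 4 and 14.1 ± 3.65 at day 10. Hepatocyte markers summed to 33076 to 41647 RNA CPM in BM at day 4 and 35424 to 44449 at day 10, below WT, with none at 0. Of other cells, 9 Kupffer markers summed to 135 to 161 in BM at day 4 and 371 to 422 at day 10 against 318 to 382 and 307 to 366 in WT, 8 endothelial markers to 329 to 357 and 335 to 382 against 522 to 538 and 548 to 567, and 8 stellate markers to 259 to 328 and 281 to 293 against 501 to 529 and 545 to 668. The 6 cholangiocyte markers summed to 80.6 to 117 and 104 to 131 against 103 to 185 and 84.9 to 142, and the 8 leukocyte markers, with *Nkg7* at 0 in BM at day 4 and *Cd79a* in WT at day 4, to 10.7 to 12.8 and 16.1 to 26.4 against 20.4 to 33.1 and 19.9 to 29.7. In M, hepatocyte markers summed to 56439 to 74637 at day 4 and 43729 to 53387 at day 10, stellate markers to 363 to 433 and 405 to 433, and endothelial markers to 367 to 475 and 373 to 438, each below WT. Kupffer markers of M summed to 199 to 585 and 253 to 423, cholangiocyte markers to a median of 110 and 113, and leukocyte markers, with *Cd3e* and *Nkg7* at 0 at day 10, to 13.8 to 36 and 16 to 28.6. The part of these shifts in the members' rise was not tested.

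With mutant β-catenin alone, part of the members were called higher at day 10 and none at day 4, and the difference between the days was not tested in B. The RPF call count in B at day 10, 26 of 60, fell to 11 without WT mouse 3 and 16 without B mouse 2, and the RNA count of 11 fell to 3 when WT mouse 3 was left out, to 7 for B mouse 1 and to 5 for B mouse 2. Over the 6 fits that leave out a mouse, the background ran from 7.19% to 14.7% in RPFs and from 4.06% to 9.71% in RNA. *Nop58* (1.03), *Nob1* (0.92), *Ppan* (0.82) and *Polr1a* (0.82) led in RPFs and stayed called in each of 11 alternative fits, library totals not among them. *Ppan* (1.14, adjusted p = 0.065), *Tcof1* (1.01, adjusted p = 0.0661) and *Nob1* (0.99, adjusted p = 0.0227) had the largest RNA changes. Of the 11 RNA calls, those of *Nob1* and *Polr1b* were kept in each of 12 alternative fits, library totals again not among them. Those of *Ppan* and *Tcof1* were lost on leaving out any WT mouse or B mouse 1 or 2. That of *Tcof1* was also lost with DESeq2. Those lower at day 4 were *Nop16* and *Rcl1* (-0.28, adjusted p = 0.0565) in RPFs and *Nop14* (-0.40, adjusted p = 0.0917) in RNA. *Rcl1* had 89.9, 85.4 and 94.1 RPF CPM against 109, 113 and 103 in WT, with no overlap, but its call was lost without WT mouse 1 or 2 or B mouse 1 or 2, and *Nop14* was not called on leaving out any of the 6 mice. RPFs of 7 of the 8 proliferation markers were called higher in B at day 4 (background 6.21%) and all 8 at day 10 (background 13.1%), where they summed to 223 to 419 RNA CPM. Hepatocyte markers summed to 67149 to 87927 RNA CPM in B at day 4 and 34591 to 41133 at day 10, against 95734 to 95838 in WT at day 10, stellate markers to 457 to 495 and 300 to 369, and endothelial markers to 467 to 484 and 414 to 503. Kupffer markers summed to 231 to 265 and 329 to 349, cholangiocyte markers to 120 to 134 and 94.2 to 127, and leukocyte markers to 15.8 to 18 and 28.5 to 39.9, with no marker of these lists at 0 in B. Hepatocyte, stellate and endothelial markers of B lay below WT at both days. The part of these shifts was not tested.

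A list of 100 other ribosome biogenesis genes, written for their role but with earlier results of these data known, was tested in the same fits. Its difference from the members was not tested. In BM, RPFs of 69 of 99 tested were called higher (background 26.2%) and 3 lower at day 4 (median 0.46), and 69 higher (background 24.5%) and 1 lower at day 10 (median 0.80). RNA was called higher for 42 of 97 (background 21.3%) and lower for 1 at day 4 (median 0.31), and higher for 63 of 98 (background 22.9%) and lower for 2 at day 10 (median 0.68). In M, RPFs of 28 of 99 were higher (background 18.5%) and 7 lower at day 4, with medians by mouse of 0.01, 0.08 and 0.08 (log2). At day 10, 45 were higher (background 10.6%) and 2 lower. The shares of all genes called lower in these fits are not given here, so the lower counts cannot be read against a background. The largest RNA changes in BM at day 4 were those of *Taf1d*, a subunit of the Pol I selectivity factor (1.57, SE 0.221, adjusted p = 8.05e-05), *Rsl1d1* (1.08, SE 0.114, adjusted p = 5.91e-06) and the Pol I subunit *Polr1g* (1.08, SE 0.291, adjusted p = 0.0105). The smallest were those of the Pol I subunit *Polr1h* (-0.42, adjusted p = 0.297), *Ngdn* (-0.33, adjusted p = 0.128) and *Sbds* (-0.28, adjusted p = 0.0559), the last encoding a factor that readies the large subunit for translation.

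Cytosolic ribosomal protein genes encode the proteins that these factors assemble into ribosomes. Their RPFs were called higher for 75 of 81 in M (background 18.5%) and 77 in BM (background 26.2%) at day 4, and for 1 in M (background 10.6%) and 52 in BM (background 24.5%) at day 10. Their RNA was called higher for 77 of 85 in M (background 8.53%) and 81 of 85 in BM (background 22.9%) at day 10. The count of 1 in M at day 10 came from 3 mice that differed, with RPF medians of -0.20, -0.46 and 0.96 (log2). Of the members, RPFs of 30, 58, 52 and 59 of 60 were called higher in the same 4 comparisons. The difference between the lists was not tested. In BM at day 10 the ribosomal protein RPF medians were 1.17, 0.28 and 0.51 (log2) in mice 1 to 3, mouse 1 being highest, whereas mouse 1 was lowest for the members.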

How the data were processed

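Ribosome profiling and cytoplasmic RNA libraries came from the same lysate of each of 24 livers. The authors trimmed reads (cutadapt 1.18), aligned RPFs with BBmap to the most abundant transcript of each gene of a filtered GENCODE transcriptome, removed duplicates by molecular identifiers, and deposited RPF counts over the coding sequence without its ends. RNA was aligned with Bowtie2 2.3.5.1, and the deposited tables hold RSEM 1.3.3 expected counts and TPM per isoform, which the authors made without pooling mice. Expected counts were summed per gene and rounded to whole numbers, TPM was summed per gene, and a transcript absent from an RPF table was taken as 0.

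Groups followed the labels. RPFs and RNA were tested separately with edgeR 4.0.16 (R 4.3.3), TMM scaling, filterByExpr (minimum count 10, minimum total 15), the quasi-likelihood test and Benjamini-Hochberg adjustment over all genes tested, with calls at an adjusted p under 0.1. TE was the interaction of group and library type. CPM per mouse used TMM factors over all mice of a library type. With 3 mice a group, p-values set a change against the spread between mice, estimated with information shared across genes. The main TE fit takes the 2 libraries of a mouse as independent. The RPF and RNA libraries of a mouse deviated together (r 0.19 to 0.60, 24 of 24 over 0.1 across genes), so TE was also fitted with the mouse as a block. Genes with values in every mouse were a set list of 1 to 5 per role, plus the 2 largest and 2 smallest changes of M and BM at each day, members called lower, called for TE or not passing the filter. *Nolc1*, *Nol6* and *Noc2l* were named after their values were seen. The members and lists were chosen with earlier results of these data known. Scripts were tested on simulated data. Alternatives were DESeq2 1.42.0, other scalings, filters and thresholds, RNA of the RPF transcript, replicate blocks and leaving out each mouse. Library totals in place of TMM were added after seeing the data. Figures used Matplotlib 3.10.9.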

Additional observations from a re-analysis of the deposited data

Results flagged for a closer look

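The genotype effect differed between day 4 and day 10 by the test of the difference itself (edgeR's quasi-likelihood test, Benjamini-Hochberg adjusted over all genes). In RPFs this held for 12 members in M (0.633% of all genes called larger) and 34 in BM (17.2% of all genes called larger and 18.6% smaller), and in RNA for 4 in M (0.467% larger) and 30 in BM (13.4% larger). Differences below are log2 changes at day 10 minus those at day 4. Each change is taken against the WT mice of its day, so a shift of WT between days enters the difference.

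In RPFs of M the members named in the report with a called difference were *Nol10* (1.06), *Ppan* (0.96), *Nop56* (0.89), *Heatr1* (0.87), *Gnl3* (0.79) and *Nop16* (0.70). In RPFs of BM they were *Gnl3* (1.68), *Nolc1* (1.40), *Nol10* (1.30), *Ppan* (1.29), *Polr1a* (1.28), *Nob1* (1.24), *Nop16* (1.21), *Nop14* (1.08), *Wdr12* (1.08), *Nop58* (1.07), *Nop56* (0.92), *Bysl* (0.82), *Pes1* (0.63) and *Heatr1* (0.61). *Ubtf* (-0.60) was the member with a called difference in the other direction.

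In RNA of M they were *Nop14* (1.09), *Nol10* (0.90), *Nolc1* (0.87) and *Nop56* (0.76). In RNA of BM they were *Nop14* (1.68), *Ppan* (1.50), *Nob1* (1.40), *Tcof1* (1.18), *Polr1a* (1.00), *Gnl3* (0.97), *Nop16* (0.91), *Nop58* (0.80), *Nolc1* (0.77), *Nol10* (0.74), *Noc2l* (0.71), *Pes1* (0.70), *Nop56* (0.62) and *Polr1b* (0.53). For the members named in RNA of M, the mean RNA CPM of WT was lower at day 10 than at day 4. It was 23.9 and then 15.2 for *Nop14*, 13.7 and 10.7 for *Nol10*, 22.7 and 16.6 for *Nolc1*, and 27.3 and 22.7 for *Nop56*. In M the same means were 20.7 and 28.1, 11.6 and 16.9, 29.6 and 40, and 41 and 58.1.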

How the results depend on the processing

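Most counts of members called kept within 1.5 times of the reported value. Those that did not were as follows. At an adjusted p under 0.05, RPF counts were 1 in B at day 4, 21 for BM against M at day 10 and 6 for the day difference in M; RNA counts were 0 in B at day 4, 7 in B at day 10 and 1 for the day difference in M; and the TE count in BM at day 4 was 1. With DESeq2 the counts were 1 (RPF) and 0 (RNA) in B at day 4, and 7 (RNA) in B at day 10. With 10 counts asked of every library the TE count in BM at day 4 was 1. The shares of all genes called under the stricter threshold, DESeq2 and this filter are not given here, so these counts cannot be read against a background. Library totals in place of TMM, chosen after seeing the data, moved the median of all genes by up to 0.42 in RPFs and 0.54 in RNA (log2), and gave 48 (M, day 4) and 53 (B, day 10) in RPFs, 2, both higher (B, day 4), 52 (M, day 4), 48 (BM against M, day 4), 32 (B, day 10), 1 (day difference in M) and 18 (day difference in BM) in RNA, and 0 for TE in BM at day 4. Under it *Rcl1* RPFs in BM at day 4 turned from -0.04 to 0.38. The cause of these moves was not tested beyond the stricter threshold.

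Mouse numbers did not pair mice across genotypes (r of same-numbered mice -0.24 to 0.27 in RNA, 13 of 36 over 0.1; -0.16 to 0.23 in RPFs, 7 of 36). With the number as a replicate block the counts were 1 (RPF) and 0 (RNA) in B at day 4 and 23 (RPF) for BM against M at day 10. With the mouse as a block the TE counts were 1, 6 and 1 at day 4 (M, BM, BM against M) and 2 and 4 at day 10 (M, BM).

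Leaving out 1 mouse gave the ranges below. The share of all genes called higher in RPFs at day 4 was then 3.63% to 6.26% (B), 14.2% to 17.9% (M) and 23.2% to 24.5% (BM). For BM against M it was 13.5% to 17.7%. At day 10 it was 5.51% to 12.9% (M) and 15.8% to 33.4% (BM). In RNA at day 4 it was 2.81% to 4.87% (B), 8.79% to 12.4% (M) and 17.7% to 19.5% (BM). For BM against M it was 9.78% to 15.0%. At day 10 it was 4.57% to 7.80% (M) and 16.4% to 27.9% (BM). In RPFs, at day 4, B 1 to 4, M 26 to 30, BM 51 to 55 and BM against M 40 to 50; at day 10, B 11 to 30, M 39 to 53, BM 55 to 59 and BM against M 7 to 55; day differences 0 to 26 (M) and 20 to 49 (BM). In RNA, at day 4, B 0 to 1, M 18 to 22, BM 41 to 44 and BM against M 21 to 31; at day 10, B 3 to 14, M 30 to 38, BM 53 to 55 and BM against M 19 to 47; day differences 1 to 5 (M) and 19 to 40 (BM). For TE, M 0 to 1 and BM 0 to 2 at day 4; M 0 to 2, BM 0 to 16 and BM against M 0 to 8 at day 10; day difference in BM 0 to 8. The RPF count in B at day 4 was 1 without WT mouse 1 or 2 or B mouse 1 or 2, and 4 without B mouse 3; the RNA count was 0 without WT mouse 1 or 3 or B mouse 2 or 3; the TE count in M was 1 without WT mouse 1 at day 4 and 2 without M mouse 3 at day 10. For TE the share of all genes called higher over the same fits was 0.394% to 0.860% (M) and 0.762% to 1.57% (BM) at day 4. At day 10 it was 0% to 0.104% (M), 0.0282% to 10.4% (BM) and 0.00931% to 6.32% (BM against M). For the day difference in BM it was 0.0269% to 5.35%. RNA libraries were shallower than RPF libraries, and *Gar1* RNA did not pass the filter on low counts in B at either day or in M at day 10.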
